A study of Arabidopsis thaliana with 18 samples.

Results

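The genes followed here were chosen as enzymes that modify salicylic acid (SA) once it has been made in Arabidopsis thaliana: the hydroxylases DMR6 and DLO1, the glucosyltransferases UGT74F1 and UGT74F2, and the methyltransferase BSMT1. The rule names 5 probe sets for them, of which the one given for UGT74F1 is annotated as another gene. They are 5 of the 22810 on the ATH1 GeneChip, an array on which a probe set is a group of short probes for a transcript, and all 5 passed the filter on dim signals that left 15212 probe sets for testing. Plants of the natural accession Kin-0 had received SA at 0.30 mM together with silwet, a surfactant that spreads a solution over plant surfaces, at 0.02%, or the silwet without SA. Samples were taken 4, 28 and 52 h after treatment, with 3 biological replicates in each of the 6 groups, so every group carries silwet and silwet alone is the background for each SA value. The labels name no tissue, age or growth condition, and untreated plants were not analysed here. Values are linear MAS5 signals, and with 3 arrays in a group their precision is limited.

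SA is a hormone of plant defence whose free form sets off the induction of defence genes, and plants keep its level in check by converting it to less active forms. DMR6 hydroxylates SA to gentisic acid, and plants that lack it hold more SA and resist downy mildew. DLO1, its close relative, hydroxylates SA at another position of the ring, and in Arabidopsis both enzymes are known to be induced by SA and during infection. UGT74F1 and UGT74F2 attach glucose to SA, UGT74F1 forming the glucoside that is stored in the vacuole and UGT74F2 mainly the glucose ester. BSMT1 transfers a methyl group to SA or benzoic acid and so forms the volatile methyl salicylate.

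The names of the probe sets were checked against the platform annotation. It lists 259286_at as BSMT1 (AT3G11480). It does not list 249754_at, 254975_at and 260567_at, whose names DMR6 (AT5G24530), DLO1 (AT4G10500) and UGT74F2 (AT2G43820) are those of the rule by which the probe sets were chosen. The rule gives 260560_at as UGT74F1 (AT2G43840), but the annotation gives it as AT2G43590, a gene of the chitinase family, and names 260563_at for UGT74F1. Below, 260560_at is therefore called AT2G43590, and it is not read as an SA enzyme. The annotated UGT74F1 probe set had signals between 0.592 and 10.4 on the 18 arrays. It lay below the filter level, the 40th percentile of the array (16.03 to 20.7 over the arrays), on all 18 of them and was not tested, so the response of UGT74F1 could not be measured here. In the TAIR10.1 gene table UGT74F2 and UGT74F1 are neighbours with 1 transcribed pseudogene, AT2G43830, between them. Whether the UGT74F2 probe set also detects its paralog was not tested.

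Arrays of the same replicate number varied together, but to unequal degrees. With group means subtracted, the SA and silwet arrays of 1 number correlated at r 0.18 to 0.82 over all tested probe sets (9 pairs). At 4 h the pairs of replicates 1, 2 and 3 had 0.71, 0.18 and 0.67. The comparisons of SA with silwet are therefore given both without the replicate number and with it as a block. The block is 1 effect per number, shared by all 6 groups. The mean log2 ratio of 3' over 5' signal of the actin, GAPDH and ubiquitin controls, a sign of RNA quality, was 1.18 to 2.26 on 17 arrays and 2.65 on SA 4 h replicate 2. Of the marker lists, the leaf gene RCA (1 of 7 photosynthesis genes with a named probe set) had signals of 1343 to 4055, the root gene PYK10 (1 of 5) 35.5 to 284, and the guard cell gene FMA (1 of 3) 33.5 to 66.4. No marker of flowers and seeds (0 of 6) or vascular tissue (0 of 3) had a named probe set. At 4 h FMA had 33.9 to 42.6 after SA against 46.2 to 59.9 after silwet, and PYK10 had 58.5 to 167 against 141 to 284. RCA had 1433 to 3408 against 2088 to 3433. None of these passed limma's test at 4 h. The adjusted p was 0.391 for FMA, 0.324 for PYK10 and 0.904 for RCA without the block, and 0.174, 0.157 and 0.627 with it. The part of these markers in the results below was not tested.

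At 4 h the hydroxylases and UGT74F2 had higher signals in SA plants than in silwet plants, by 2.39-fold to 3.05-fold, and BSMT1 and AT2G43590 had lower means. No probe set of the 5 passed limma's test at adjusted p under 0.05 without the block, where 0.795% of all tested probe sets did. With the block, DMR6, DLO1 and UGT74F2 rose, which is 3 of 5 where 2.99% of all tested probe sets were called higher and 6.65% in either direction. The signals are not resolved by cell, so more transcript per cell and more cells of an expressing type cannot be told apart.

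**Figure D1:**
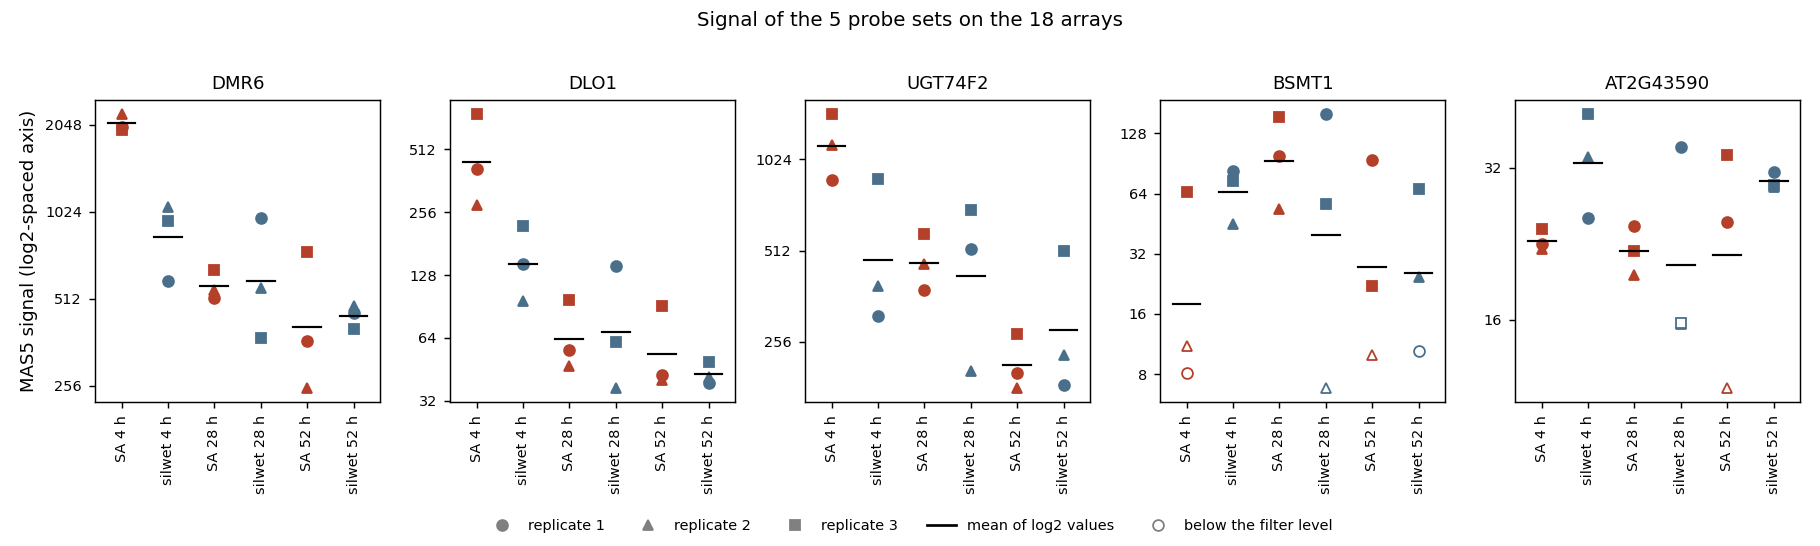
MAS5 signal (vertical axis, log2-spaced, a separate range in each panel) of the 5 probe sets on every array, with SA in red and silwet in blue at 4, 28 and 52 h. Symbols mark the replicate number, bars the mean of the log2 values, and open symbols a signal below the filter level. DMR6 lies at 1971 to 2238 on the SA arrays of 4 h and at 250.3 to 1061 on all others.

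DMR6 had signals of 2019, 2238 and 1971 on the 3 SA arrays at 4 h, against 587, 1061 and 949.6 on the 3 silwet arrays. The SA arrays lay close together (CV 6.87%) and all above the silwet arrays, which spread more widely (CV 28.6%). Groups that do not overlap were seen for 18.0% of all tested probe sets at this time. DMR6 was 2.47-fold higher after SA, a log2 difference of 1.30 (SE 0.36, 95% interval 0.54 to 2.07). Limma's adjusted p was 0.105 without the block and 0.0386 with it.

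DLO1 had 411, 277.8 and 755 after SA at 4 h, against 145, 95.8 and 219 after silwet. Replicate 3 was the highest and replicate 2 the lowest in both treatments, and the groups did not overlap. The difference was 3.05-fold, or 1.61 on the log2 scale (SE 0.49, 95% interval 0.57 to 2.65). With the block the SE was 0.34. Limma's adjusted p was 0.146 without the block and 0.0128 with it.

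UGT74F2 had 875, 1147 and 1450.2 after SA at 4 h, against 310.1, 392 and 883 after silwet. The groups overlapped slightly, since silwet replicate 3 was above SA replicate 1. Within each replicate number the SA array was the higher of its pair, by 2.82-fold, 2.93-fold and 1.64-fold. The fitted difference was 2.39-fold, 1.25 on the log2 scale (SE 0.47 without the block and 0.29 with it), and limma's adjusted p was 0.249 without the block and 0.0193 with it.

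BSMT1 had 8.15, 11.02 and 65.0 after SA at 4 h, against 83.2, 45.3 and 73.8 after silwet. SA replicates 1 and 2 lay below the filter level, while SA replicate 3 fell inside the silwet range. The log2 difference was -1.86, with an unadjusted 95% interval from -4.14 to 0.42 without the block and from -3.67 to -0.045 with it. Limma's adjusted p was 0.524 without the block and 0.201 with it. The SA array was the lower of its pair in all 3 replicates, but by very unequal ratios of 0.0980, 0.243 and 0.880, the first and second with an SA array below the filter level. Leaving out SA replicate 3 gave -2.78 without the block and -2.54 with it, and leaving out SA replicate 1 gave -1.29 and -0.995. The difference in BSMT1 did not pass after adjustment over all tested probe sets, with or without the block.

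The AT2G43590 probe set had 22.6, 22.0 and 24.2 after SA at 4 h, against 25.4, 33.6 and 40.9 after silwet. The groups did not overlap, but all 18 signals of this probe set were below the 60th percentile of their arrays. The log2 difference of -0.51 (95% interval -1.28 to 0.26) did not pass the test (limma adjusted p = 0.633 without the block and 0.383 with it).

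The calls made with the block depended on single arrays. In fits with the block and 1 of the 6 arrays left out, the log2 difference stayed between 1.00 and 1.53 for DMR6, 1.42 and 1.71 for DLO1, and 1.05 and 1.44 for UGT74F2. For DMR6 the call was lost whichever of the 6 arrays was left out (limma adjusted p between 0.0580 and 0.208). DLO1 missed it without silwet replicate 1 or 2 or SA replicate 3 (adjusted p = 0.0650, 0.0575 and 0.0617), and UGT74F2 without silwet replicate 1 or 2 or SA replicate 2 (0.118, 0.0663 and 0.102). Such a fit also has fewer arrays at 4 h. Without SA replicate 2, the array of the highest 3' over 5' ratio, the log2 differences with the block were 1.21 for DMR6, 1.71 for DLO1 and 1.06 for UGT74F2. With arrays centred on their medians, the median log2 difference over all tested probe sets at 4 h was 0.06 in place of -0.09, a shift of 0.15, and the values were 1.45 for DMR6, 1.76 for DLO1, 1.40 for UGT74F2 and -1.71 for BSMT1.

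At 28 h and 52 h none of the 5 probe sets differed between SA and silwet plants beyond the spread of the replicates, and the groups overlapped for every one of them. Limma called 0% of all tested probe sets at either time, with and without the block. Its unadjusted p was under 0.05 for 53 at 28 h and 146 at 52 h (141 and 642 with the block). Each count is below a 0.05 share of the 15212 tested, the share expected if no probe set differed. Over all tested probe sets the groups did not overlap for 2.26% at 28 h and 6.33% at 52 h.

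For DMR6 the signals at 28 h were 514, 547 and 642 after SA, against 975, 559 and 374.4 after silwet. The fitted log2 difference of -0.06 had a 95% interval from -0.82 to 0.71, that is from 0.565-fold to 1.63-fold. At 52 h it had 366, 250.3 and 742 after SA, against 457, 484 and 403 after silwet (log2 difference -0.13, 95% interval -0.89 to 0.63). The silwet arrays spread 2.60-fold at 28 h and the SA arrays 2.97-fold at 52 h.

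DLO1 had 55.9, 47.1 and 96.98 after SA at 28 h, against 142, 36.7 and 61.2 after silwet (log2 difference -0.11, 95% interval -1.15 to 0.94). At 52 h the signals were 42.5, 40.3 and 91.4 after SA, against 39.0, 41.6 and 49.0 after silwet (0.33, 95% interval -0.72 to 1.37). SA replicate 3 was the highest array of the time at 52 h for both hydroxylases, and silwet replicate 1 at 28 h.

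UGT74F2 had 378, 463 and 579 after SA at 28 h, against 520.1, 205 and 697 after silwet (log2 difference 0.15, 95% interval -0.84 to 1.14). At 52 h it had 201, 179 and 272 after SA, against 184, 232 and 512 after silwet (-0.38, 95% interval -1.38 to 0.61). For the glucosyltransferase, replicate 3 was the highest array of its group in all 6 groups.

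BSMT1 was the most variable of the 5. At 28 h it had 98.4, 53.5 and 154 after SA, against 160.4, 6.79 and 56.6 after silwet, where the lowest and the highest signal of the time were both silwet arrays. At 52 h the signals were 94.2, 9.95 and 22.0 after SA, against 10.4, 24.4 and 67.4 after silwet. The log2 differences were 1.24 (95% interval -1.04 to 3.52) and 0.09 (95% interval -2.19 to 2.37). These intervals run from 0.487-fold to 11.5-fold at 28 h and from 0.219-fold to 5.16-fold at 52 h. The AT2G43590 probe set had 19.6 to 24.5 after SA at 28 h, against 15.7 to 35.1 after silwet, and 11.7 to 33.8 at 52 h, against 29.3 to 31.3.

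**Figure D2:**
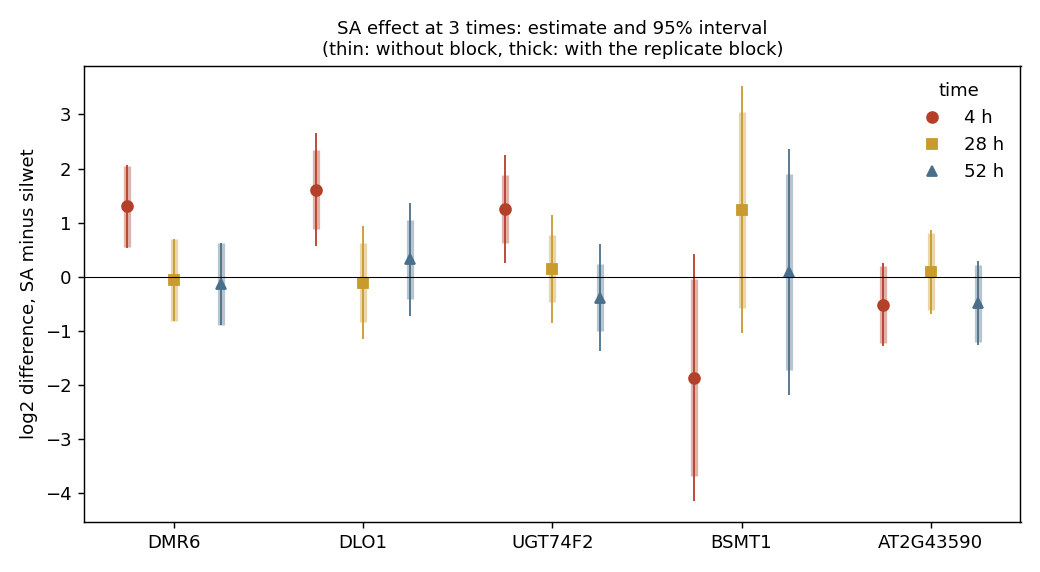
Log2 difference of SA minus silwet (vertical axis) for the 5 probe sets at 4, 28 and 52 h. Points are the fitted differences, thin lines their 95% intervals without the block and thick bars those with the replicate block. DMR6, DLO1 and UGT74F2 lie at 1.25 to 1.61 at 4 h and near 0 later, and the intervals of BSMT1 are the widest.

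Whether the SA effect was smaller later than at 4 h was tested directly. For DMR6 the effect at 28 h minus that at 4 h was -1.36 on the log2 scale (SE 0.51) and that at 52 h minus 4 h was -1.43 (SE 0.51). For DLO1 these were -1.72 (SE 0.69) and -1.28 (SE 0.69), and for UGT74F2 -1.10 (SE 0.66) and -1.64 (SE 0.66). None passed over all tested probe sets (limma adjusted p between 0.601 and 0.913 for these 6 values), where 0.0263% were called in each comparison. None passed with the block either (adjusted p between 0.0832 and 0.249), where 0.782% were called for 28 h and 0.828% for 52 h. For BSMT1 the values were positive, 3.10 (SE 1.52) and 1.95 (SE 1.52), and for AT2G43590 0.60 and 0.03 (adjusted p between 0.807 and 1.00 for these 4). With 1 array left out, those of BSMT1 ran from 1.83 (without silwet 28 h replicate 2) to 4.11 (without silwet 28 h replicate 1) and from 1.06 (without SA 52 h replicate 1) to 2.87 (without SA 4 h replicate 3). Both comparisons use the same arrays of 4 h.

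The same-numbered pairs show how even the response was. At 4 h the SA array was higher than its silwet partner in 3 of 3 pairs for DMR6 (2.08-fold to 3.44-fold), for DLO1 (2.84-fold to 3.44-fold) and for UGT74F2. The ratio of DLO1 was the most even of the 5. At 28 h DMR6 was higher in 1 of 3 pairs, with ratios of 0.527, 0.979 and 1.71, and DLO1 in 2 of 3, with 0.394, 1.28 and 1.58. At 52 h the ratios of DMR6 were 0.801, 0.517 and 1.84. In replicate 3, but not in replicates 1 and 2, both hydroxylases stayed above the silwet array at all 3 times. BSMT1 was higher in 1 of 3 pairs at 52 h, the pair whose silwet array lay below the filter level.

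**Figure D3:**
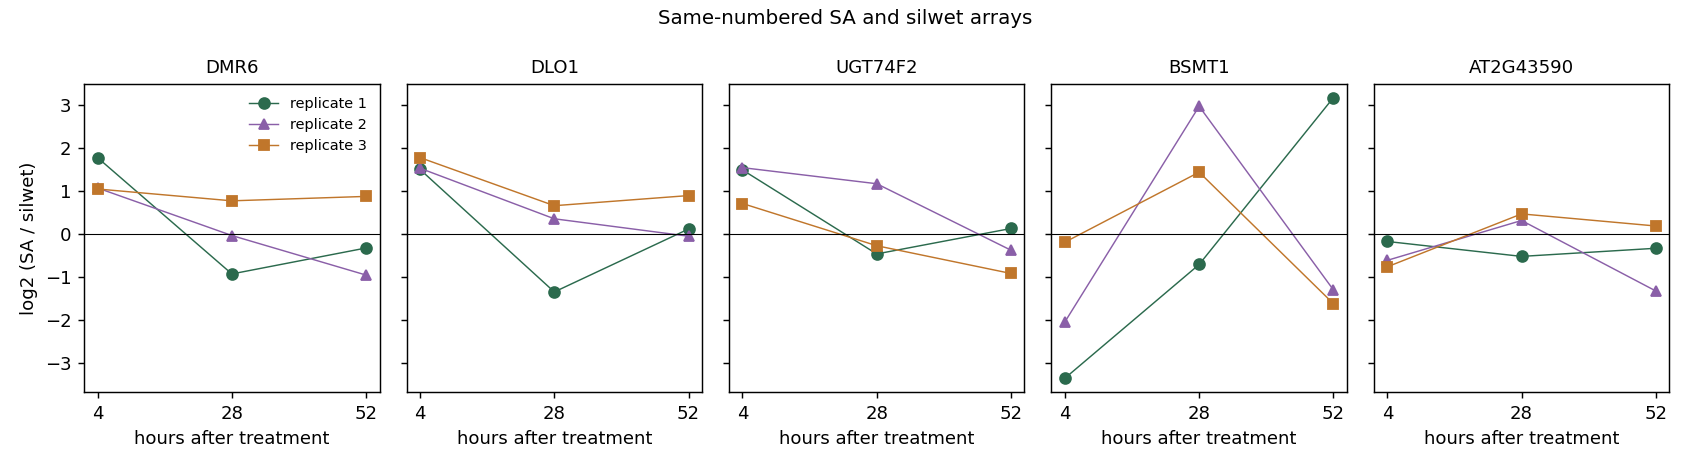
Log2 ratio of the SA array over the silwet array of the same replicate number (vertical axis) at 4, 28 and 52 h (horizontal axis), with a line per replicate number. For DMR6, DLO1 and UGT74F2 all 3 lines start above 0 at 4 h and spread around 0 later. For BSMT1 the lines start at or below -0.18 and cross.

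The levels were also compared between times within each treatment. In SA plants the transcripts of both hydroxylases were lower at 28 h than at 4 h. DMR6 averaged 568 ± 66.4 at 28 h, against 2076 ± 143 at 4 h (SD, n = 3 each), and fell by 1.87 on the log2 scale (SE 0.36, limma adjusted p = 0.00345). DLO1 averaged 66.7 ± 26.6 at 28 h, against 482 ± 246 at 4 h (SD, n = 3 each), and fell by 2.80 (SE 0.49, limma adjusted p = 0.00195). Both passed without any 1 of the 6 arrays. These are 2 of 5 probe sets, where 6.24% of all tested ones were called lower and 11.6% in either direction. UGT74F2 averaged 474 ± 101 at 28 h, against 1158 ± 288 at 4 h (SD, n = 3 each), groups that did not overlap, as for DMR6 and DLO1 and for 26.1% of all tested probe sets. Its log2 difference of -1.28 (SE 0.47) missed the threshold (limma adjusted p = 0.0923), and passed it in a fit to the arrays compared only (0.0339). BSMT1 had a higher mean at 28 h, with 102 ± 50.4 against 28.0 ± 32.0 (SD, n = 3 each), a log2 difference of 2.37 (SE 1.07) that did not pass (limma adjusted p = 0.184).

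In silwet plants none of the 5 was called between 28 h and 4 h, where 0.605% of all tested probe sets were. DLO1 averaged 80.0 ± 55.1 at 28 h, against 153 ± 62.3 at 4 h (SD, n = 3 each), which is -1.08 on the log2 scale (SE 0.49, limma adjusted p = 0.544). For DMR6 the averages were 636 ± 308 at 28 h and 866 ± 248 at 4 h (SD, n = 3 each), with a log2 difference of -0.51 (SE 0.36). Between 52 h and 28 h none was called in SA plants or in silwet plants, where limma called 0% of all tested probe sets in both. Its unadjusted p was under 0.05 for 229 and 238 of them without the block, again below a 0.05 share. With the block these numbered 642 in SA plants, below that share, and 1048 in silwet plants, above it. UGT74F2 had the lowest unadjusted p of the 5 in SA plants there, with 218 ± 48.2 at 52 h, against 474 ± 101 at 28 h (SD, n = 3 each), a log2 difference of -1.12 (SE 0.47) between groups that did not overlap, as for 2.71% of all tested probe sets in this direction.

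Over all 6 groups DMR6, DLO1 and UGT74F2 varied beyond the spread within groups (moderated F test of limma, adjusted p = 0.00332, 0.00198 and 0.0301), where 9.39% of all tested probe sets did. BSMT1 (0.708) and AT2G43590 (0.789) did not pass. The calls of DMR6 and DLO1 held without any 1 of the 18 arrays. That of UGT74F2 was lost without any 1 SA array of 4 h, without SA 52 h replicate 1 or 2 and without silwet 52 h replicate 2 (adjusted p between 0.0554 and 0.142). By mean log2 signal, SA at 4 h was the highest group for all 3 and silwet at 4 h the next. For DMR6 the order then ran through silwet 28 h, SA 28 h, silwet 52 h and SA 52 h. Of the neighbours in that order, which the same signals set, only SA 4 h over silwet 4 h and SA 28 h over silwet 52 h did not overlap. At 4 h SA and silwet did not overlap for 18.0% of all tested probe sets. That share was not computed for SA 28 h against silwet 52 h. For DLO1 only SA 4 h over silwet 4 h did not overlap, and for UGT74F2 all neighbours overlapped. For BSMT1 the order was SA 28 h, silwet 4 h, silwet 28 h, SA 52 h, silwet 52 h and SA 4 h, with overlap between all neighbours.

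Other genes were set beside them at 4 h from 7 lists of 86 genes, which cover SA conjugation, synthesis and response, relatives of the 3 enzyme classes, and jasmonate synthesis and response. Of these, 21 had a named probe set and 16 could be tested, 8 of them from the SA lists and 8 from the lists of relatives. Of the 16, 3 were called higher and 1 lower without the block, and 5 higher and 3 lower with it. Over all tested probe sets 0.473% were called higher and 0.322% lower without the block, and 2.99% higher and 3.66% lower with it. Their median log2 difference was 0.08, against -0.09 over all tested probe sets. Of 3 tested genes of SA conjugation, UGT76B1, which glucosylates SA and N-hydroxypipecolate, had 2030.4 ± 397 after SA against 206 ± 115 after silwet (SD, n = 3 each) and rose by 3.46 on the log2 scale (SE 0.76, limma adjusted p = 0.0461). UGT89A2, which attaches xylose to hydroxylated SA, had 38.2 ± 8.98 after SA against 15.3 ± 6.08 after silwet (SD, n = 3 each), with 2 silwet arrays below the filter level. Its log2 difference of 1.38 (SE 0.45) did not pass (adjusted p = 0.180 without the block and 0.0705 with it). GH3.5, an enzyme that joins SA or auxin to amino acids, did not pass either (0.43, SE 0.34). Methyl salicylate esterases, which reverse the step of BSMT1, were among the genes not tested here.

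Of 4 tested oxygenases of the enzyme class of DMR6 and DLO1, F6'H1 (AT3G13610), which acts in scopoletin synthesis, had 603 ± 232 after SA against 95.1 ± 40.8 after silwet (SD, n = 3 each) and rose by 2.68 (SE 0.47, limma adjusted p = 0.0155). The other 3 oxidise jasmonate and had lower means after SA. JOX4 had 239 ± 167 against 475 ± 78.4 (SD, n = 3 each), a log2 difference of -1.20. JOX3 had 107 ± 146 against 189 ± 156 (SD, n = 3 each), a difference of -1.72, with 1 SA array below the filter level. Both passed with the block (limma adjusted p = 0.0431 and 0.0381) and missed the threshold without it (0.518 and 0.5998), and JOX2 (-0.86) passed in neither. No gene of the list of jasmonate synthesis and response (0 of 13) had a named probe set.

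Of 3 tested relatives of UGT74F2, UGT74C1, of glucosinolate synthesis, had 59.5 ± 5.93 after SA against 225 ± 52.8 after silwet (SD, n = 3 each) and fell by 1.90 on the log2 scale (limma adjusted p = 0.0107). UGT74B1, of the same pathway (-0.54), and UGT74D1, which acts on auxins (0.00), did not pass. JMT, the jasmonate methyltransferase and the only tested relative of BSMT1, had a log2 difference of -0.47 (SE 0.42). Among 3 tested genes of SA synthesis and its regulators, SARD4, of pipecolate synthesis, rose by 1.52 (limma adjusted p = 0.0174), while AIM1 (-0.60) and SAG101 (0.15) did not pass. The response genes GRX480, a glutaredoxin (1.43), and WRKY53, a transcription factor (1.70), passed only with the block (limma adjusted p = 0.00892 and 0.0363), as the 3 enzymes did. At 28 h and 52 h none of the 16 was called, and the lowest limma adjusted p was 1.00 without the block and 0.954 with it.

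**Figure D4:**
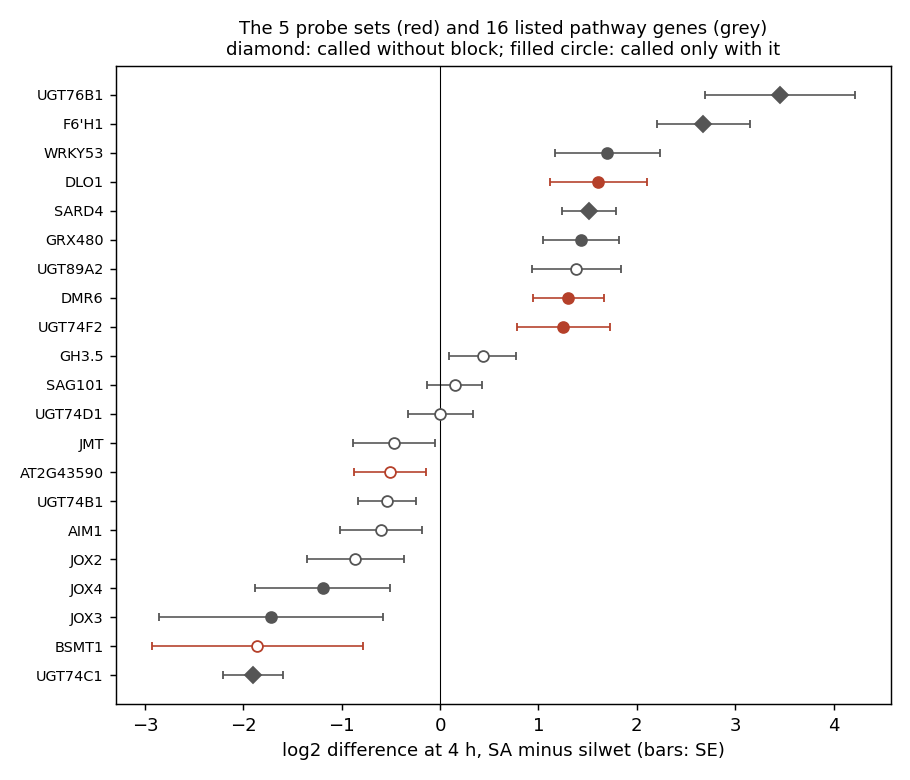
Log2 difference of SA minus silwet at 4 h (horizontal axis, bars show the SE) for the 5 probe sets in red and 16 listed pathway genes in grey. Diamonds passed the test without the block, filled circles only with the replicate block, and open circles in neither. DLO1, DMR6 and UGT74F2 lie at 1.25 to 1.61, below WRKY53 and above GH3.5, and BSMT1 lies at -1.86, between JOX3 and UGT74C1.

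The named probe sets most alike to each gene over the 18 arrays were found by Pearson's r of the log2 signals among 8303 tested probe sets with 1 gene name. For DMR6 they were AT3G12040 (r = 0.96), AT2G23680 (0.96) and AT3G48640 (0.95), and for DLO1 PUB24, a ubiquitin ligase (0.96), AT4G29950 (0.96) and AT3G48760 (0.94). For UGT74F2 they were AT2G24160 (0.94), AT5G38900 (0.93) and AT3G13610 (0.92), the last of which is the scopoletin oxygenase described above. The arrays share treatment, time and replicate number. Of all tested probe sets, 7.09% had r above 0.7 with DMR6, 8.13% with DLO1 and 4.89% with UGT74F2. For BSMT1 the share was 0.460%, and the closest named probe sets were AT1G05340 (0.87), AT2G34810 (0.86) and UGT76E12, a glucosyltransferase (0.85). For AT2G43590 no probe set reached 0.7. Between the members r was 0.89 for DMR6 and DLO1, 0.82 for DLO1 and UGT74F2 and 0.75 for DMR6 and UGT74F2, and it was -0.10 for BSMT1 and DMR6. With group means subtracted, the same pairs had 0.49, 0.61, 0.17 and 0.14. BSMT1 then had 0.66 with DLO1 and 0.63 with UGT74F2. AT2G43590 had 0.86 with DMR6, the highest of all pairs, 0.65 with DLO1, 0.36 with UGT74F2 and 0.49 with BSMT1.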

How the data were processed

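The values used are the linear intensity of each probe set on the 18 arrays, as deposited. The submitters' processing notes name MAS5, without its version or settings. All arrays shared 1 scale, since their 2% trimmed means ran from 100.009 to 100.011. MAS5 subtracts background, which leaves dim probe sets noisy on a log scale. Log2 values were taken without an offset. A probe set was tested if 3 or more arrays had it over their 40th percentile. With 64 controls left out, 15212 of 22810 remained. The model, in limma 3.58.1 (R 4.3.3), held a mean for each of the 6 groups over all 18 arrays, without the block (eBayes with an intensity trend), and p-values were adjusted by Benjamini-Hochberg over all probe sets of a comparison. The 10 comparisons are those named in the report.

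Replicate numbers come from the labels, which do not say what arrays of 1 number share. Every same-numbered pair of SA and silwet arrays correlated above 0.1, so values with the number as a block are printed where they change a call. Between SA plants of 28 h and 4 h the lowest pair had r = 0.0879. Since the block is shared by all 6 groups, such pairs across times bear on every value with the block.

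Gene names came from the platform annotation, which lists 14016 probe sets, 13513 of them with 1 gene. The 5 probe sets are described in every comparison, with the genes of the lists and, for each, the 3 most alike named probe sets. Members, lists and tests were chosen with earlier results of these data known. The annotated UGT74F1 probe set was looked up after the annotation was read. The fits were tested on simulated data. Python 3.11.15 and matplotlib 3.10.9 made the figures.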

Additional observations from a re-analysis of the deposited data

How the results depend on the processing

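The alternatives were quantile normalization, median centring, an offset at the 20th percentile, no filter on dim signals, a stricter one (60th percentile), eBayes without the trend, the replicate block, a fit to the arrays compared only, and leaving out each array in turn. The block with each array left out at 4 h was added after seeing the data. The number of the 5 probe sets called between SA and silwet at 4 h was 3 with the replicate block and 0 in the other settings, and 0 to 2 with the block and 1 array left out. In SA plants between 28 h and 4 h the pairing was not borne out by every pair, and there the replicate block called UGT74F2 too (limma adjusted p = 0.00447), as did the fit to the arrays compared only (0.0339). It changed no other call of the 5.

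Over all probe sets, the calls at 4 h numbered 78 with median centring (76.9% higher, against 59.5% of 121), 187 with the 60th percentile filter, 1011 with the block, 11 with the arrays compared only, and 15 to 142 without 1 array. For the SA effect at 28 h minus 4 h there were 119 calls with the block, 2 with median centring, 1 with the arrays compared only and 0 to 5 without 1 array, against 4. At 52 h minus 4 h there were 126 with the block, 2 with either other normalization, 7 with the offset and 0 to 11 without 1 array, against 4. SA plants at 28 h against 4 h gave 3756, 854 and 888 to 1906 calls with the block, the arrays compared only and 1 array left out, against 1769, and silwet plants 654, 4 and 29 to 110, against 92. The test over all groups gave 3593 with the block and 805 to 1780 without 1 array, against 1429.

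Differences that changed sign were all uncalled. For AT2G43590 the SA effect at 52 h minus 4 h was -0.064 with quantile normalization and -0.039 with median centring, against 0.03. Leaving out 1 array gave these ranges of the log2 difference. At 28 h it was -0.39 to 0.31 for DMR6, -0.55 to 0.42 for DLO1, -0.37 to 0.51 for UGT74F2, -0.10 to 0.48 for AT2G43590 and -0.031 to 2.25 for BSMT1. At 52 h it was -0.56 to 0.22 for DMR6, -0.056 to 0.54 for DLO1, -0.69 to 0.053 for UGT74F2 and -0.80 to 0.82 for BSMT1. For AT2G43590 it was -0.30 to 0.46 for the SA effect at 52 h minus 4 h, -0.15 to 0.016 in SA plants at 28 h against 4 h and -0.36 to 0.41 at 52 h against 28 h, where DLO1 had -0.62 to 0.069. In silwet plants UGT74F2 had -0.54 to 0.34 and BSMT1 -1.74 to 0.55 at 28 h against 4 h, and BSMT1 -1.89 to 0.39 at 52 h against 28 h. The cause was not tested. BSMT1 lay below the filter level on 5 of 18 arrays and AT2G43590 on 3, and DMR6, DLO1 and UGT74F2 on 0.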
